A study of Mus musculus with 18 samples.

Results

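Uterine cross sections of mice with the ovaries in place (intact) were profiled by mRNA sequencing, and 3 libraries from mice lacking Tsc2 in the uterus (KO) were compared with 3 libraries from wild-type mice (WT). These 6 libraries were taken by their labels, as all intact libraries among the 18 of the series. Both genotypes were 12 weeks of age and carried the same mixed background of 129Sv and C57BL/6. The other 12 libraries, 3 in each of 4 groups, came from KO and WT mice that lost their ovaries at 4 weeks of age (ovx), and from KO and WT mice operated on alike that were then given 17β-estradiol for 8 weeks from a pellet (0.5 mg, released over 90 days) (E2). The intact KO libraries are called KO 1, KO 3 and KO 4 and the intact WT libraries WT 1, WT 2 and WT 4, and values of a gene are given in that order, in FPKM (fragments per kilobase of transcript, scaled to the mapped fragments of the library). The labels call the deletion uterine-specific, but the labels give neither the driver of the deletion nor the stage of the estrous cycle. Nor do they tell whether the libraries of a group are separate animals, so the p-values measure only the spread between these samples.

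TSC2, with TSC1, restrains the small GTPase RHEB, which switches on the kinase complex mTORC1. mTORC1 promotes protein, lipid and nucleotide synthesis and restrains autophagy and the making of lysosomes. In people, loss of TSC1 or TSC2 underlies tuberous sclerosis and lymphangioleiomyomatosis, a disease in which smooth-muscle-like cells carry melanocytic markers and are rich in lymphatic vessels. The uterus has an epithelium and glands that secrete into the lumen, a stroma beneath them and a muscular wall, the myometrium, and estradiol from the ovaries drives growth and secretion of the epithelium. The study was titled for estrogen- and mTORC1-dependent genes of the uterus, and the intact comparison asks how Tsc2 loss changed the uterus of mice whose ovaries still cycle.

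WT 4 stood apart from the other intact libraries. It had 7395 genes listed at 0, against 5815 to 6288 in the other 5, and its FPKM values summed to 423992, against 263079 to 319721. Over genes (not independent of each other), Pearson's r of log2(FPKM + 1) was 0.962 to 0.975 between KO libraries and 0.872 to 0.942 between WT libraries. On average WT 1 correlated with KO libraries at 0.927 and with WT libraries at 0.907, and WT 2 at 0.937 with KO and 0.926 with WT. WT 4 correlated at 0.850 with KO and 0.891 with WT. The root mean square SD of log2 values was 0.315 in KO and 0.576 in WT. The 18 libraries were clustered by the steps in which low values move, with the number of sets fixed at 4. KO 1, KO 4, WT 1 and WT 4 fell in 1 set and KO 3 and WT 2 in another. Pairs of intact libraries within a set had 4.82% to 19.6% of their low values in a common step, and pairs between sets 1.78% to 3.73%. The labels name no batches, and whether the libraries of a set were made alike is not known. Depth in reads is unknown, and the steps gave a relative depth of 0.67 to 1 within the first set and 0.741 to 1 within the other.

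Tsc2 itself was checked first. It stood at 1.88, 1.98 and 1.62 FPKM in KO, against 2.51, 2.25 and 2.04 FPKM in WT. Every KO library was below every WT library, yet the means of 1.83 ± 0.19 FPKM in KO and 2.27 ± 0.24 FPKM in WT (SD, n = 3 each) differed by -0.21 on the log2(FPKM + 1) scale, with p = 0.1 in an exact two-sided permutation test, the smallest p that 3 against 3 allows. The labels do not say which part of the gene was deleted, so reads from the rest of the transcript may remain. Its partner Tsc1 had 1.60, 1.58 and 1.88 FPKM in KO and 1.53, 1.20 and 1.38 FPKM in WT (log2 difference 0.18 ± 0.13 SE, adjusted p = 0.497).

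The cell types of the uterus were present in every library but not at like levels. No marker on the lists for smooth muscle, blood endothelium, pericytes, epithelium or stroma was listed at 0 in any of the 6. Summed over 12 stroma markers, FPKM was 424, 450 and 425 in KO and 424, 555 and 82.1 in WT. By the limma test described below, 0 of the 12 passed, 10 had a higher mean in KO, and the median log2 difference was 0.73. Some members were nearly missing from WT 4. The homeobox gene Hoxa10 had 22.4, 15 and 17.6 FPKM in KO and 28.4, 10.9 and 0.474 FPKM in WT. The transcription factor Hand2 had 3.28, 3.33 and 7.56 FPKM in KO and 14.6, 1.85 and 0.125 FPKM in WT. Esr1 and Pgr, also on the list, were not missing from WT 4, and their values are given below. Summed over 20 smooth muscle markers, FPKM was 2960, 2802 and 986 in KO and 379, 905 and 230 in WT. Summed over 20 epithelial identity genes, it was 411, 710 and 732 in KO and 797, 1399 and 2521 in WT. In a cross section of whole tissue, fewer cells of a type and less RNA per cell cannot be told apart, so these levels are given beside the gene groups they move with.

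**Figure D1:**
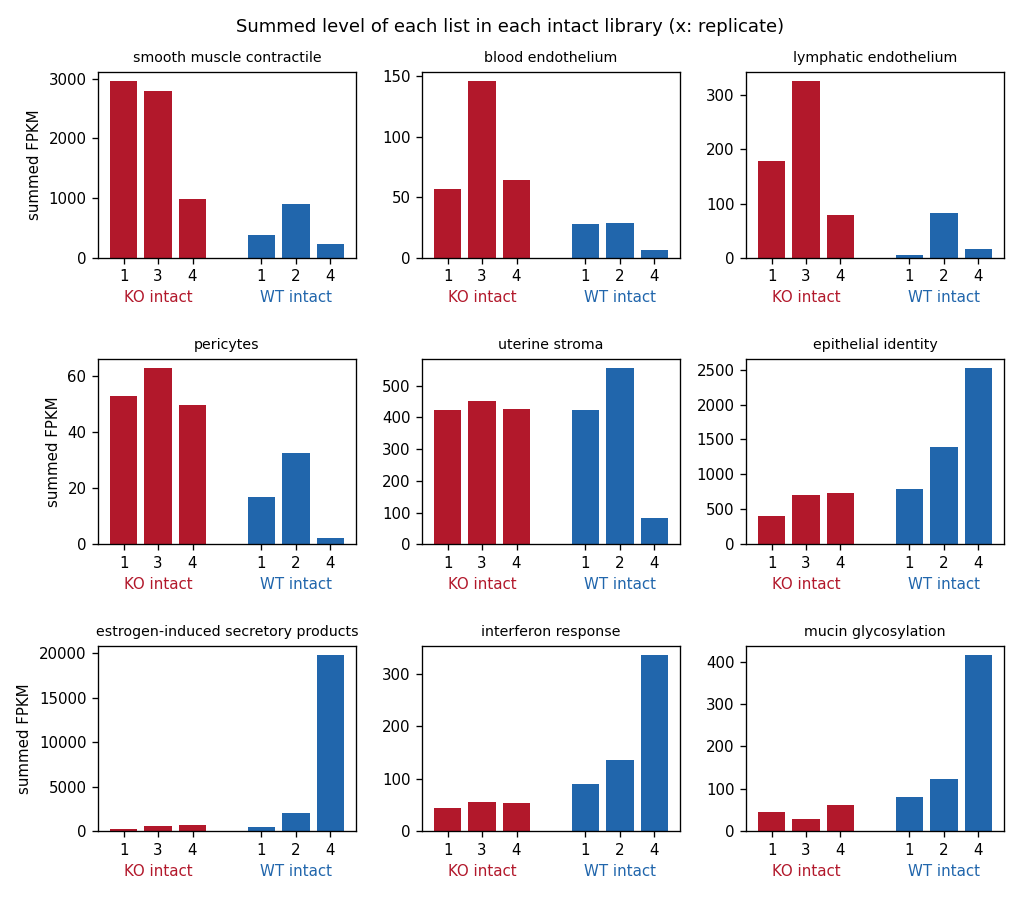
Summed FPKM of 9 lists of marker and family genes in each intact library, with bars for KO 1, KO 3 and KO 4 left of WT 1, WT 2 and WT 4 and a linear axis from 0. Smooth muscle markers sum to 2960, 2802 and 986 in KO and 379, 905 and 230 in WT. Epithelial identity genes sum to 411, 710 and 732 in KO and 797, 1399 and 2521 in WT.

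Of 25791 genes, 13898 reached 1 FPKM in at least 3 of the 18 libraries and were tested with limma on log2(FPKM + 1), and 303 of them passed an adjusted p of 0.05, 2.18% of those tested. KO was higher at 165 of these (1.19%) and lower at 138 (0.993%). The libraries of the 2 genotypes overlapped at 0 of the 303 genes, so each difference has the same direction in both sets of libraries. Over all tested genes, KO lay wholly above WT at 10.3% and wholly below it at 12.5%, and 2557 genes had an unadjusted p under 0.05. The median log2 difference over all tested genes was -0.04. Of 715 genes tested from 56 lists of pathways, families and cell type markers, 55 were called. By limma, 27 lists had at least 1 call and 29 had 0, and 21 of those 29 had a member with an unadjusted p under 0.05. A list's count is read below against these shares, and a call is said to hold throughout when its adjusted p stayed under 0.05 without each of the 6 intact libraries in turn.

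**Figure D2:**
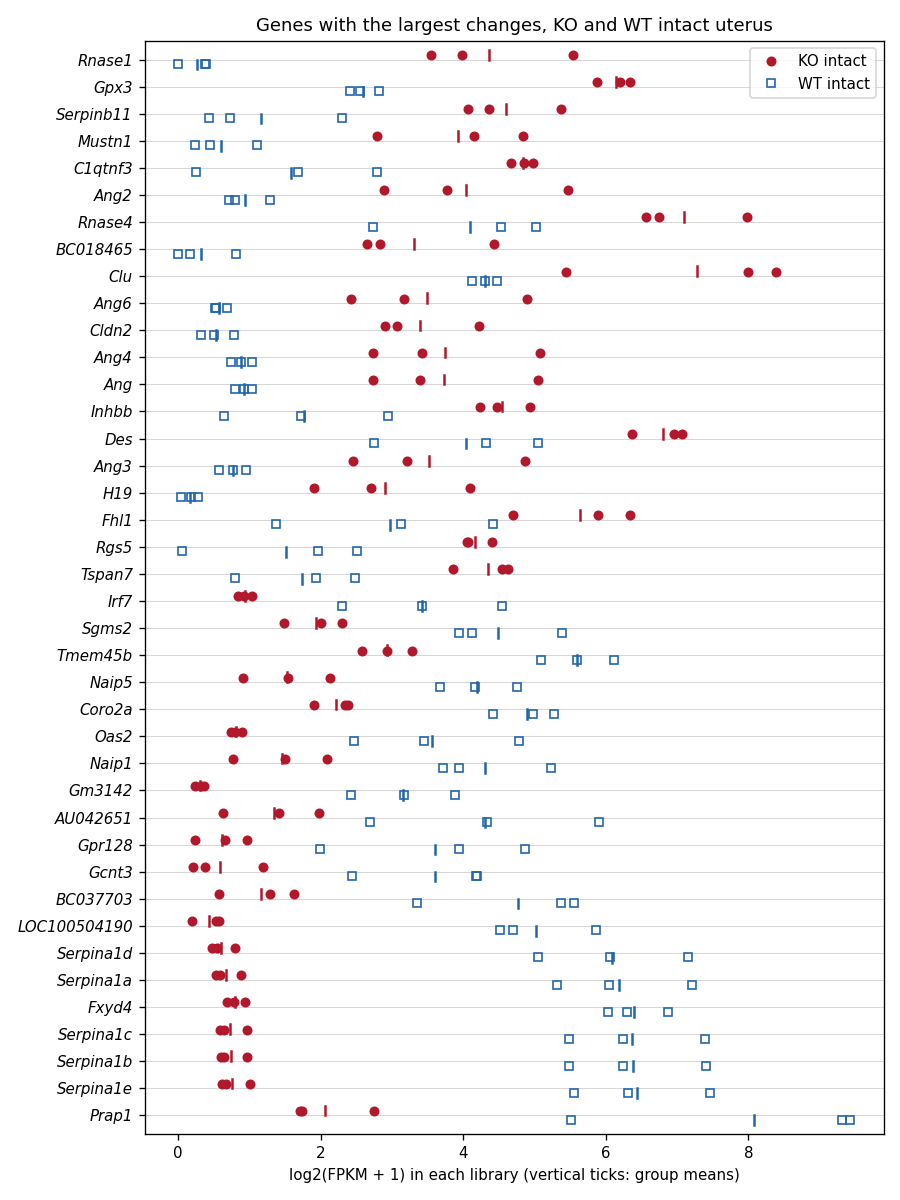
The 20 named genes with the largest log2 difference in each direction, with log2(FPKM + 1) of each KO library (red circles) above that of each WT library (blue squares) and ticks at the group means. No gene shown has overlapping genotypes, and WT libraries spread more than KO libraries at many of them.

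Among the largest falls in KO were those of the genes of alpha-1-antitrypsin, a secreted inhibitor of neutrophil elastase best known from liver. Serpina1a had 0.848, 0.440 and 0.496 FPKM in KO, against 38.8, 64.7 and 147 FPKM in WT. All 3 KO libraries were below 1 FPKM and all 3 WT libraries above 30 FPKM. Serpina1e, the highest of the family, had 1.00, 0.529 and 0.587 FPKM in KO, against 45.9, 78.0 and 176 FPKM in WT. The log2 differences of Serpina1a, Serpina1b, Serpina1c, Serpina1d and Serpina1e were -5.52, -5.64, -5.64, -5.48 and -5.68, each with an adjusted p of 0.00507, and all 5 calls held throughout.

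These 5 genes are near-identical copies on chromosome 12, and their levels moved together over the 6 libraries. The ratio to Serpina1a ran from 1.13 to 1.16 for Serpina1b, from 1.12 to 1.15 for Serpina1c, from 1.18 to 1.20 for Serpina1e and, with a wider range, from 0.793 to 1.04 for Serpina1d. Reads may therefore have been split between copies, and the 5 are uncertain as separate measurements and are best read as 1. Their likeness reaches into the promoter, which is why the bases before each annotated start are printed here. The sequences are from RefSeq on GRCm38.p6, on the minus strand, for Serpina1a at chr12:103863620-103863739, Serpina1b at chr12:103738190-103738314, Serpina1c at chr12:103904951-103905076, Serpina1d at chr12:103773634-103773748 and Serpina1e at chr12:103956900-103957074. Capitals mark a run of 55 bases that all 5 share, which begins between 55 and 117 bases before the annotated gene start.
Serpina1a: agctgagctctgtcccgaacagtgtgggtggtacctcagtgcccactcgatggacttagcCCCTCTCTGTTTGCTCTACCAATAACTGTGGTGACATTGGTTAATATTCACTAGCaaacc
Serpina1b: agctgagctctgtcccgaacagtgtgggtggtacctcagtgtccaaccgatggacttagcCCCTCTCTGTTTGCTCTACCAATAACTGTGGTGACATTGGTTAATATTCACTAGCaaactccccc
Serpina1c: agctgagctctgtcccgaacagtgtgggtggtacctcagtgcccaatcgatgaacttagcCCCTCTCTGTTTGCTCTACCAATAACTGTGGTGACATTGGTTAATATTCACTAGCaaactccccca
Serpina1d: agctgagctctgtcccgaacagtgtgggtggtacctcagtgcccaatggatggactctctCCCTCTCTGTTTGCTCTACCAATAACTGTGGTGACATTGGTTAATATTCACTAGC
Serpina1e: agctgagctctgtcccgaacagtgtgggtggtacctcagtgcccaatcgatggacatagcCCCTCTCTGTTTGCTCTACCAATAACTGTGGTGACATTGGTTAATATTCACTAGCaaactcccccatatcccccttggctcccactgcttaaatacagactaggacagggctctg

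Prap1 and Fxyd4 fell by about as much, and Coro2a and Slc23a1 by less. Prap1, which encodes a secreted protein rich in proline and acidic residues, had 2.33, 2.25 and 5.73 FPKM in KO, against 44.6, 632 and 688 FPKM in WT. Its log2 difference was -6.02 ± 1.18 (SE), with an adjusted p of 0.019 that became 0.0671, 0.097 and 0.0729 without KO 1, KO 3 or WT 4. Fxyd4, a regulator of the sodium-potassium pump, had 0.920, 0.716 and 0.605 FPKM in KO, against 64.3, 77.5 and 116 FPKM in WT (log2 difference -5.60 ± 0.77, adjusted p = 0.00354). The call held throughout. Fxyd4 was the 1 gene called among 18 of ion and water transport, of which 0 were called higher, with 2 higher and 4 lower at an unadjusted p under 0.05 and a median of -0.11. Coro2a, an actin-binding coronin, had 4.05, 2.76 and 4.23 FPKM in KO and 30.6, 20.4 and 37.7 FPKM in WT (-2.68 ± 0.38, adjusted p = 0.00446), and this call held throughout as well. Slc23a1, a vitamin C transporter outside the rule for named genes and chosen after its values were seen, had 1.54, 0.422 and 1.06 FPKM in KO and 9.17, 8.48 and 8.80 FPKM in WT (-2.33 ± 0.35, adjusted p = 0.00507).

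Genes of mucins and of enzymes that build mucin-type sugar chains lay on the lower side in KO. Besides enzymes, the list holds the mucin genes Muc1, Muc4 and Muc20. All 14 tested members of that list had a lower mean log2 level in KO, 3 were called lower and 0 higher, 7 had an unadjusted p under 0.05, and the median difference was -1.29. Gcnt3, which makes branched mucin cores, had 1.27, 0.159 and 0.295 FPKM in KO, against 17.1, 17.3 and 4.43 FPKM in WT (-3.01 ± 0.55, adjusted p = 0.0118), and its call ended without KO 3 (0.0784). Galnt12, which starts such chains, had 1.21, 0.783 and 1.02 FPKM in KO and 3.30, 6.32 and 18 FPKM in WT (-2.08 ± 0.42, adjusted p = 0.022). That call ended without KO 1, KO 3, KO 4 or WT 4 (0.062, 0.115, 0.0599 and 0.0562). B3gnt7, which lengthens sulfated chains, had 0.543, 0.540 and 0.679 FPKM in KO and 1.66, 3.5 and 3.74 FPKM in WT (-1.28 ± 0.30, adjusted p = 0.04), and was lost without any library but WT 1 (0.114, 0.152, 0.0784, 0.076 and 0.147 without KO 1, KO 3, KO 4, WT 2 and WT 4). Within the set of 4 libraries the list's median was -1.14 and within the other set -1.49. It was -0.76 without WT 4, with 2 members called, and without KO 1, KO 3 or KO 4 the calls numbered 1, 0 and 1, with 6, 6 and 9 members at an unadjusted p under 0.05.

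Epithelial identity genes did not pass the test but lay on the same side. Of 20 tested, 0 were called by limma, 8 had an unadjusted p under 0.05, all lower in KO, 9 were wholly below WT, and the median was -1.03. Cdh1, the epithelial cadherin, had 18.5, 11.5 and 27.9 FPKM in KO, against 48.4, 29.4 and 97.8 FPKM in WT (-1.47, adjusted p = 0.237), and the claudin Cldn3, a tight junction protein, 4.83, 9.33 and 11.9 FPKM in KO, against 37.7, 33.3 and 40.3 FPKM in WT (-2.05, adjusted p = 0.0946). The summed levels of this list given above do not overlap between the genotypes, and their part in the lower Serpina1, Prap1, Fxyd4, mucin and mucin enzyme genes was not tested. The list's median was -0.64 without WT 4. Of 10 genes of keratins and squamous differentiation, limma called 0, with 5 lower at an unadjusted p under 0.05 and a median of -1.24. Among 18 genes of claudins and tight junctions, 1 was called higher and 1 lower. Cldn23 had 2.55, 2.44 and 3.98 FPKM in KO, against 14.8, 26.9 and 22.9 FPKM in WT (-2.48 ± 0.47, adjusted p = 0.0157, ended without KO 1, KO 3 or WT 4 at 0.0617, 0.0865 and 0.0507).

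The opposite direction was taken by Cldn2, a claudin that forms pores for small cations and water. It had 6.47, 7.36 and 17.7 FPKM in KO, against 0.411, 0.247 and 0.716 FPKM in WT, and no WT library reached 1 FPKM. Its log2 difference was 2.87 ± 0.45 (adjusted p = 0.00511) and the call held throughout. KO uteri had more Cldn2 transcript and less Cldn23 and Fxyd4 transcript than WT uteri.

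Ribonucleases of the angiogenin and pancreatic type rose in KO. These small proteins cleave RNA outside cells, and angiogenin also drives growth of vessels. Of 10 tested members of the list, 6 were called higher and 0 lower, 6 were higher and 2 lower at an unadjusted p under 0.05, and the median was 2.83. The 2 lower members were called without WT 1, and in the 6 intact libraries alone 0 members were called. The summed level of the list was 188, 193 and 501 FPKM in KO and 85.0, 127 and 208 FPKM in WT, which overlap. Rnase4 had 93.3, 107 and 250 FPKM in KO, against 22.2, 31.4 and 5.64 FPKM in WT (3.00 ± 0.59, adjusted p = 0.019), and was lost without KO 3, KO 4 or WT 4 (0.06, 0.0666 and 0.0634). Ang, which encodes angiogenin, had 9.53, 5.67 and 32.1 FPKM in KO, against 1.04, 0.893 and 0.743 FPKM in WT (2.81 ± 0.49, adjusted p = 0.00954). Rnase1, the pancreatic type ribonuclease, had 10.7, 14.9 and 45.6 FPKM in KO and 0.299, 0.315 and 0 FPKM in WT (4.10 ± 0.72, adjusted p = 0.00954). KO 4 was the highest library at each of these 3 genes, and the calls of Ang and Rnase1 held throughout.

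Most of these genes lie close together on chromosome 14. In RefSeq order on GRCm38.p6, 0 genes separate Rnase4 from Ang, and 2 genes, Eddm3b and Rnase6, lie between Ang and Rnase1. Rnase6 was not called, with 0.645, 0.604 and 0.295 FPKM in KO and 0.572, 0.619 and 0.0414 FPKM in WT (0.12 ± 0.43, adjusted p = 0.919). Rnase4 and Ang begin at the same base in RefSeq. The bases before that shared start, at chr14:51090927-51091076 on the plus strand, are printed because the window belongs to both genes, which rose together. Rnase4 has 2 promoter windows in RefSeq, of which this is 1, and Ang has 1. Which start Rnase4 used was not tested. Capitals mark the last 50 bases before the start.
Ang: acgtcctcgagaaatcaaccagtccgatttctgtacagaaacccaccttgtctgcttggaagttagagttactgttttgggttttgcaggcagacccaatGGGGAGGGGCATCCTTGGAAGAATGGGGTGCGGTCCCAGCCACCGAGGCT

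The mouse copies of angiogenin, Ang2, Ang3, Ang4 and Ang6, were higher by 3.11 ± 0.55, 2.75 ± 0.51, 2.86 ± 0.50 and 2.92 ± 0.53 on the log2 scale, with adjusted p of 0.00993, 0.0129, 0.0099 and 0.0111, and held throughout. Ang4 stood at 0.898 to 1.02 times Ang in the 6 libraries, and Ang6 at 0.499 to 0.894 times, so reads may be shared between copies and the 4 are uncertain as separate measurements. Ang2 had 12.6, 6.37 and 43.2 FPKM in KO, against 1.44, 0.641 and 0.731 FPKM in WT. The family as a whole was lowest in KO 3 among the KO libraries, which was still above every WT library.

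Serpinb11 and Serpinb7, which encode protease inhibitors of clade B, lie side by side on chromosome 1, with 0 genes between them. Serpinb11 had 19.5, 15.7 and 40.2 FPKM in KO, against 0.347, 3.94 and 0.663 FPKM in WT (3.44 ± 0.50, adjusted p = 0.00507). Serpinb7, outside the rule for named genes and chosen as its neighbour after its values were seen, had 5.83, 4.55 and 6.13 FPKM in KO, against 0.153, 1.18 and 0.0376 FPKM in WT (2.23 ± 0.26, adjusted p = 0.00178). WT 2 was the highest WT library at both genes and still far below KO. Of the 7 tested members of the clade B list, Serpinb11 was the 1 called, 2 others were lower at an unadjusted p under 0.05, and the median was 0.24.

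Other secreted proteins were higher. Gpx3, the glutathione peroxidase of plasma, had 57.7, 72.6 and 79.8 FPKM in KO, against 4.33, 4.84 and 6.05 FPKM in WT. Within each genotype the 3 libraries were close, and the log2 difference was 3.55 ± 0.72 (adjusted p = 0.0225), lost without KO 1, KO 3, KO 4 or WT 4 (0.062, 0.104, 0.0656 and 0.056). When limma was fitted to the 6 intact libraries alone, Gpx3 was called (3.55 ± 0.19, adjusted p = 0.011). Gpx3 was the 1 gene called among 19 antioxidant genes, whose median was 0.19. C1qtnf3, an adipokine-like relative of the complement protein C1q, had 30.5, 27.9 and 24.4 FPKM in KO, against 2.21, 5.93 and 0.195 FPKM in WT (3.26 ± 0.53, adjusted p = 0.006), which held throughout. Clu, the extracellular chaperone clusterin, had 42.5, 332 and 255 FPKM in KO and 18.7, 16.4 and 21.3 FPKM in WT (2.97 ± 0.71, adjusted p = 0.0423). KO 1 was much nearer to WT than the other KO libraries, and the call ended without any library but KO 1 (0.204 and 0.118 without KO 3 and KO 4, and 0.0516, 0.072 and 0.111 without WT 1, WT 2 and WT 4).

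Enzymes and transport proteins were also among the calls that held throughout. Dio1, a deiodinase that activates thyroid hormone, had 4.55, 3.84 and 7.31 FPKM in KO, against 0.177, 0.349 and 0.121 FPKM in WT (2.32 ± 0.33, adjusted p = 0.00446). Fabp3, a fatty acid carrier of muscle, had 4.51, 4.15 and 4.14 FPKM in KO, against 0.254, 0.267 and 0 FPKM in WT (2.17 ± 0.36, adjusted p = 0.00682). Both genes were chosen after their values were seen, as calls that held throughout and in the 6 intact libraries alone. All 3 KO libraries lay above 3 FPKM at both genes while no WT library reached 0.5 FPKM.

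Within the activin and BMP pathway, a ligand subunit and an activin-binding protein rose. Of 17 tested, 3 were called higher and 0 lower, with a median of 0.26 and of 0.12 without WT 4. Inhbb, a subunit of activin B and inhibin B, had 17.8, 21.2 and 29.7 FPKM in KO, against 0.562, 2.30 and 6.71 FPKM in WT (2.78 ± 0.50, adjusted p = 0.0111), and missed the threshold without KO 3 (0.0517). Fst, encoding follistatin, which binds and blocks activin, had 2.34, 3.91 and 6.26 FPKM in KO, against 0.0461, 0.129 and 0.00835 FPKM in WT (2.21 ± 0.21, adjusted p = 0.000377). This call held throughout.

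A pair of secreted WNT antagonists rose. Of 16 antagonists and targets of WNT on the list, 2 were called higher and 0 lower, 8 were higher at an unadjusted p under 0.05, and the median was 0.85, or 0.33 without WT 4. Wif1, which binds WNT proteins, had 3.33, 2.58 and 5.95 FPKM in KO, against 0.238, 0.350 and 0.0517 FPKM in WT (1.98 ± 0.24, adjusted p = 0.00193) and held throughout. Sfrp4, a secreted frizzled-related protein, had 7.93, 12.2 and 9.39 FPKM in KO, against 0.712, 2.60 and 0.171 FPKM in WT (2.47 ± 0.56, adjusted p = 0.0367), and was lost without KO 1, KO 3, KO 4 or WT 4 (0.0814, 0.156, 0.0784 and 0.141). Of 9 ligands, limma called 0, with 3 lower at an unadjusted p under 0.05 and a median of -0.46. Wnt7a, an epithelial ligand needed for uterine glands in mice, had 2.32, 2.39 and 1.49 FPKM in KO, against 10.3, 24 and 4.70 FPKM in WT (-1.95 ± 0.53, adjusted p = 0.0702).

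Among 9 matricellular CCN and YAP-related genes, 2 were called higher, with a median of 0.87 and of 0.45 without WT 4. Ctgf, a matricellular growth factor, had 11.1, 31.8 and 13.4 FPKM in KO, against 2.22, 4.17 and 0.994 FPKM in WT (2.47 ± 0.42, adjusted p = 0.00893), which held throughout. Wwtr1, the coactivator TAZ, had 7.85, 9.29 and 8.63 FPKM in KO, against 4.45, 4.78 and 3.55 FPKM in WT (0.87 ± 0.21, adjusted p = 0.0452), lost without KO 1, KO 3, KO 4 or WT 4 (0.102, 0.182, 0.0983 and 0.165). H19, an imprinted noncoding RNA, had 2.75, 5.52 and 16.0 FPKM in KO, against 0.130, 0.218 and 0.0282 FPKM in WT (2.73 ± 0.50, adjusted p = 0.0118) and held throughout. Igf2, the imprinted growth factor gene that neighbours it on chromosome 7, had 0.962, 6.41 and 1.46 FPKM in KO, against 0.156, 0.605 and 0.0473 FPKM in WT (1.40 ± 0.35, adjusted p = 0.0517). KO was above WT in every library at both imprinted genes, with the highest value in KO 4 for H19 and in KO 3 for Igf2.

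Among receptors of growth factors, Erbb2, a receptor tyrosine kinase of the EGF family, had 2.65, 2.50 and 3.53 FPKM in KO, against 4.98, 6.46 and 10.7 FPKM in WT (-1.06 ± 0.25, adjusted p = 0.0423). It was lost without any library but WT 1 (0.125, 0.174 and 0.0641 without KO 1, KO 3 and KO 4, and 0.0501 and 0.162 without WT 2 and WT 4). Of 6 tested genes of the EGF list it was the 1 called. Gata2, a transcription factor that acts with the progesterone receptor, had 11.5, 9.89 and 9.90 FPKM in KO, against 29.3, 23.1 and 18 FPKM in WT (-1.08 ± 0.25, adjusted p = 0.0397), and was lost without KO 1, KO 3, KO 4, WT 1 or WT 2 (0.0849, 0.156, 0.093, 0.0643 and 0.0583). It was the 1 called of 13 progesterone-related genes. Foxj1, the regulator of motile cilia, had 2.04, 1.35 and 3.91 FPKM in KO, against 0.102, 0.0504 and 0 FPKM in WT (1.64 ± 0.29, adjusted p = 0.00954), and held throughout. Foxj1 also marks ciliated cells of the oviduct, whose secretory gene Ovgp1 lay the other way at 0.172, 0.225 and 0.552 FPKM in KO and 19.2, 43.5 and 1.09 FPKM in WT (-3.24, adjusted p = 0.102). The other oviduct and ciliated cell markers listed, Tekt1, Dynlrb2, Ccdc39 and Sntn, were below the filter on low values.

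Smooth muscle genes stood higher in KO as a group. All 20 tested had a higher mean in KO, 3 were called, 19 had an unadjusted p under 0.05, and the median was 2.00. KO lay wholly above WT at 8 of them, and the genotypes overlapped at the rest. Des, the muscle intermediate filament desmin, had 123, 134 and 81.6 FPKM in KO, against 19, 32.0 and 5.70 FPKM in WT (2.76 ± 0.63, adjusted p = 0.0395), lost without KO 1, KO 3, KO 4 or WT 4 (0.114, 0.161, 0.0656 and 0.151). Tpm1, a tropomyosin, had 229, 251 and 122 FPKM in KO, against 53.4, 87.5 and 28.6 FPKM in WT (1.88 ± 0.45, adjusted p = 0.0423), lost without KO 1, KO 3 or WT 4 (0.135, 0.185 and 0.171). The most abundant members missed the threshold, Acta2, smooth muscle actin, having 639, 556 and 165 FPKM in KO, against 53.9, 157 and 31.8 FPKM in WT (2.57 ± 0.68, adjusted p = 0.0633).

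WT 2 came close to KO 4 at the actin, and KO 4 was the lowest KO library at each of these 3 genes. Leaving out KO 1, KO 3 or WT 4 ended every call on the list, while 18 members kept an unadjusted p under 0.05 each time and the median was 1.77 without KO 3 and 1.52 without WT 4. Without KO 4, 7 members were called, and without WT 2, 14. Within the library sets the median was 2.28 and 1.45. Mustn1, a nuclear protein of muscle, had 16.8, 27.6 and 5.89 FPKM in KO, against 0.357, 1.16 and 0.174 FPKM in WT (3.33 ± 0.52, adjusted p = 0.00507) and held throughout. Mustn1 is also on a list of skeletal muscle markers, which had 1 of 5 tested members called higher and 4 higher at an unadjusted p under 0.05. That list summed to 1111, 1087 and 331 FPKM in KO and 137, 329 and 125 FPKM in WT, its other 4 members were below the filter on low values, and its part in the smooth muscle result was not tested. Oxtr, the receptor through which oxytocin contracts the myometrium, had 6.55, 6.80 and 6.46 FPKM in KO, against 0.354, 3.14 and 0.627 FPKM in WT (1.86 ± 0.35, adjusted p = 0.0136), lost without KO 1, KO 3 or WT 4 (0.0517, 0.0688 and 0.0565).

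Vessel genes stood higher too. Of 16 blood endothelial genes, 4 were called higher and 0 lower, 15 were higher at an unadjusted p under 0.05, and the median was 1.35. Pecam1, an adhesion molecule of endothelium, had 9.30, 23.7 and 7.95 FPKM in KO, against 3.25, 3.51 and 0.727 FPKM in WT (2.04 ± 0.49, adjusted p = 0.0461). Vwf, which encodes von Willebrand factor, had 1.27, 2.98 and 1.8 FPKM in KO, against 0.146, 0.3 and 0.0374 FPKM in WT (1.35 ± 0.27, adjusted p = 0.0215). KO 3 was the highest library at both genes. Pecam1 was lost without KO 1, KO 3, KO 4 or WT 4 (0.0914, 0.217, 0.0615 and 0.187) and Vwf without KO 3, KO 4 or WT 4 (0.126, 0.0513 and 0.0722). Without KO 3, 0 members were called, with 13 at an unadjusted p under 0.05 and a median of 1.04. The same counts, with a median of 1.12, were found without WT 4, and the summed level was 56.5, 146 and 64.7 FPKM in KO and 28.2, 28.4 and 6.62 FPKM in WT.

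Lymphatic markers had the highest share of calls among the vessel lists, with 5 of 7 higher and a median of 1.61. The summed level of the list was 178, 326 and 79.5 FPKM in KO and 5.35, 82.0 and 16.2 FPKM in WT, which overlap. Flt4, the receptor of lymphatic growth factors, had 4.12, 6.98 and 2.12 FPKM in KO, against 0.230, 1.47 and 0.469 FPKM in WT (1.61 ± 0.29, adjusted p = 0.0103), missing the threshold without KO 3 (0.0525). Lyve1, a hyaluronan receptor of lymphatic vessels, had 11.9, 18 and 5.19 FPKM in KO, against 0.584, 3.55 and 1.06 FPKM in WT (2.23 ± 0.45, adjusted p = 0.0218), lost without KO 1, KO 3 or WT 4 (0.0793, 0.128 and 0.0741). Without KO 3, 0 of the 7 were called and 6 had an unadjusted p under 0.05, and without KO 1 or WT 4 the list kept 1 call each. Rgs5, a pericyte regulator of G protein signalling, had 15.7, 20.1 and 15.6 FPKM in KO, against 4.70, 2.88 and 0.0421 FPKM in WT (2.66 ± 0.62, adjusted p = 0.0402), and the call ended without KO 1, KO 3, KO 4 or WT 4 (0.104, 0.162, 0.0806 and 0.148). Adult globin genes of red cells lay on the same side, Hbb-b1 having 16.4, 23.2 and 14.0 FPKM in KO, against 1.47, 4.38 and 1.87 FPKM in WT (2.46 ± 0.58, adjusted p = 0.0423), lost without any library but WT 2 (0.108, 0.174 and 0.0741 without KO 1, KO 3 and KO 4, and 0.0628 and 0.137 without WT 1 and WT 4). Their part in the vessel counts was not tested.

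**Figure D3:**
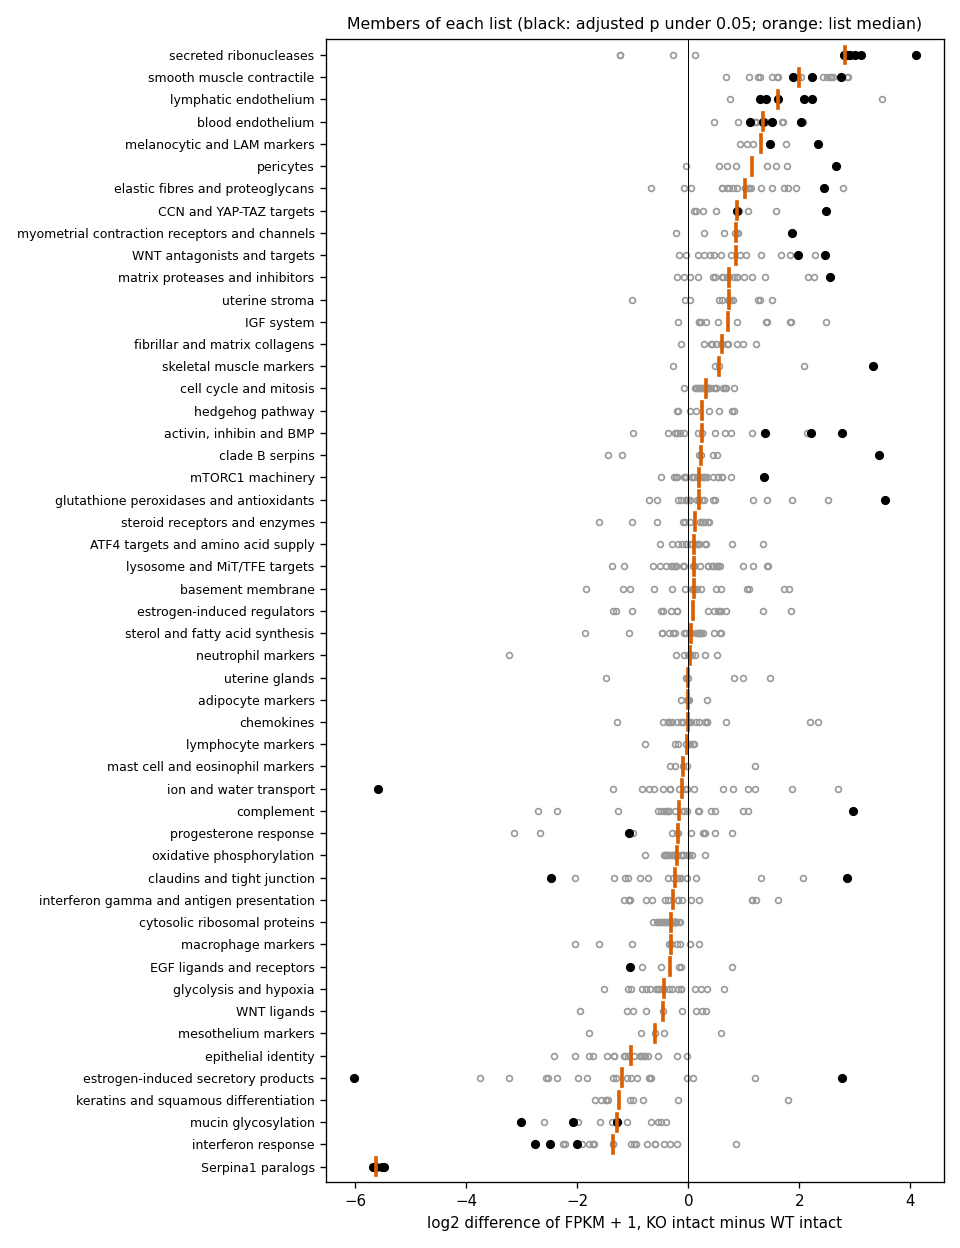
Log2(FPKM + 1) difference, KO minus WT, of every tested member of the lists with at least 5 tested members, with called genes in black, others in grey and the list median in orange. The Serpina1 list sits at -5.64 and the ribonucleases at 2.83, while smooth muscle (2.00) and blood endothelium (1.35) lie above 0 with few members called.

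Of the genes that form or regulate mTORC1, Rragd passed the test. It was the 1 gene of 25 tested that was called higher, 0 were called lower, 4 were higher at an unadjusted p under 0.05, and the median was 0.20. With median-ratio scaling 3 members were called higher and with quantile normalization 4, and without WT 1 there were 2. Rragd encodes a Rag GTPase that brings mTORC1 to the lysosome and is a known target of the transcription factors TFEB, TFE3 and MITF. It had 2.49, 2.35 and 2.95 FPKM in KO, against 0.601, 0.394 and 0.221 FPKM in WT (1.36 ± 0.21, adjusted p = 0.00507), and the call held throughout and in the 6 intact libraries alone. Flcn, which acts on the Rag GTPases, had 4.85, 5.24 and 6.19 FPKM in KO, against 3.16, 4.09 and 3.03 FPKM in WT without passing (0.54 ± 0.18, adjusted p = 0.122). Mtor had 1.28, 1.07 and 1.41 FPKM in KO, against 1.17, 1.00 and 0.867 FPKM in WT (0.16 ± 0.14, adjusted p = 0.583).

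Lysosomal genes and targets of the MiT/TFE factors had 0 calls by limma among 29, with 7 higher and 3 lower at an unadjusted p under 0.05 and a median of 0.10. Quantile normalization called 6 of them higher and median-ratio scaling 1, and the calls numbered 2 without WT 1 and 1 without WT 2. The median was -0.05 without KO 4 and 0.22 without WT 4, so the list had no settled direction. Mitf itself differed by 1.16 (adjusted p = 0.06), and Atp6v0d2, a proton pump subunit, had 1.31, 1.63 and 4.02 FPKM in KO, against 0.305, 0.212 and 0 FPKM in WT (1.42 ± 0.37, adjusted p = 0.06). Of 6 tested markers of melanocytic cells and lymphangioleiomyomatosis, 2 were called higher and 0 lower. All 6 were higher at an unadjusted p under 0.05, with a median of 1.32, or 0.81 without WT 4. Pmel, Tyrp1, Dct and Tyr, also on that list, were below the filter on low values. The called members were Gpnmb and Mlana, Gpnmb having 7.5, 7.38 and 4.82 FPKM in KO, against 0.689, 0.895 and 0.0108 FPKM in WT (2.33 ± 0.57, adjusted p = 0.0483). Mlana had 1.43, 2.24 and 1.72 FPKM in KO and was listed at 0 in all 3 WT libraries (adjusted p = 0.0423). Leaving out any 1 of the 6 libraries ended both calls, with adjusted p of 0.0501 to 0.18 for Gpnmb and 0.0505 to 0.175 for Mlana. When limma was fitted to the 6 intact libraries alone, Mlana was the 1 member called (adjusted p = 0.0267).

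Several growth and metabolic lists had 0 calls. By limma, this held for 25 cell cycle genes (2 higher at an unadjusted p under 0.05, median 0.33). It held for 30 genes of ribosomal proteins and elongation factors (2 lower, median -0.32) and 25 genes of oxidative phosphorylation (0 either way, median -0.21). The same was true of 21 genes of glycolysis and hypoxia (2 lower, median -0.44) and 21 of sterol and fatty acid synthesis (3 lower, median 0.06). The last list was 16 ATF4 targets and genes of amino acid supply (2 higher, median 0.10). The cell cycle list had a higher mean in KO at 24 of 25, against 6183 of all 13898 tested genes. The summed level of that list was 140, 104 and 169 FPKM in KO and 174, 78.3 and 75.9 FPKM in WT, which overlap. The list of ribosomal proteins, which includes the elongation factor genes Eef1a1 and Eef2, had a lower mean in KO at 30 of 30. Its summed level was 6533, 8231 and 7150 FPKM in KO and 7356, 9763 and 10355 FPKM in WT, so the genotypes overlapped in the sum.

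Antiviral genes induced by interferon stood lower in KO. Of 22 tested, 3 were called lower and 0 higher, 16 were lower and 1 higher at an unadjusted p under 0.05, and the median was -1.36, with KO wholly below WT at 17. Oas2, an enzyme that senses double-stranded RNA, had 0.669, 0.733 and 0.856 FPKM in KO, against 4.55, 9.93 and 26.4 FPKM in WT (-2.76 ± 0.64, adjusted p = 0.0413). Irf7, which amplifies the interferon response, had 0.783, 0.898 and 1.05 FPKM in KO, against 3.94, 9.71 and 22.3 FPKM in WT (-2.49 ± 0.60, adjusted p = 0.0456). KO libraries were uniformly near 1 FPKM or below, and WT 4 was the highest WT library at both. Without KO 1, KO 3, KO 4 or WT 4, 0 members were called, with 11, 13, 13 and 9 lower at an unadjusted p under 0.05 and a median of -0.85 without WT 4. Without WT 1 or WT 2 the calls numbered 9 and 2, Oas2 and Irf7 standing at 0.0553 and 0.0691 without WT 2. The median was -1.51 within the set of 4 libraries and -0.97 within the other.

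The inhibitors of apoptosis of the Naip family, which sense bacterial proteins, were lower. Naip5 had 3.38, 0.874 and 1.91 FPKM in KO, against 16.9, 11.8 and 25.9 FPKM in WT (-2.67 ± 0.36, adjusted p = 0.00354). Naip1 had 3.26, 0.712 and 1.83 FPKM in KO, against 14.4, 12.1 and 36.7 FPKM in WT (-2.84 ± 0.44, adjusted p = 0.00507). Both calls held throughout, with KO 3 the lowest library at each. Naip2 and Naip6 differed by -2.45 ± 0.37 and -2.41 ± 0.38, each with an adjusted p of 0.00507. The 4 genes lie close together on chromosome 13 and are near-identical copies, Naip5 having 0.707 to 1.23 times the FPKM of Naip1, so reads may have been split between them and the members are uncertain singly.

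Markers of immune cells did not pass. Of 10 neutrophil markers, limma called 0, and 0 had an unadjusted p under 0.05, although their summed level was 10.7, 19.1 and 42.5 FPKM in KO and 65.0, 218 and 448 FPKM in WT, mostly from Ltf, which uterine epithelium also makes. Macrophage markers had 0 calls among 10, with 2 lower at an unadjusted p under 0.05 and a median of -0.32. Lymphocyte markers had 0 calls among 8 and 0 at an unadjusted p under 0.05, with a median of -0.01. The part of immune cells in the interferon and Naip results was not tested.

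The transcript of the estrogen receptor was not called. Esr1 had 14.8, 8.55 and 14.7 FPKM in KO, against 11.5, 12.8 and 14.6 FPKM in WT (-0.06 ± 0.33, adjusted p = 0.951). Pgr, the progesterone receptor gene, had 6.08, 5.72 and 8.02 FPKM in KO, against 25.1, 13.8 and 8.22 FPKM in WT (-1.02 ± 0.41, adjusted p = 0.198). The KO libraries were alike at Pgr and the WT libraries spread, WT 4 being next to KO. Esr1 and Pgr are among 12 genes of steroid receptors and enzymes of which 0 were called, with 1 lower at an unadjusted p under 0.05.

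The response of WT uteri to estradiol was taken from the WT E2 and WT ovx libraries, and the intact libraries entered its calls only through the shared estimate of the spread. WT E2 differed from WT ovx at 47.5% of tested genes, and 789 genes were higher and 115 lower by at least 4-fold. In the intact uterus, 632 of the 789 estradiol-induced genes had a lower mean in KO and 156 a higher one, with a median difference of -0.66. Of them 26 (3.30%) were called lower and 8 (1.01%) higher in KO, against 0.993% and 1.19% of all tested genes. The median log2 level of the 789 genes was 2.41, 2.63 and 2.85 in KO and 2.62, 3.08 and 4.48 in WT, compared with 1.27 to 1.58 in WT ovx and 4.38 to 4.98 in WT E2. The genotypes overlapped, since WT 1 lay below KO 3 and KO 4, and WT 4 lay at the level of estradiol-treated uteri. Without WT 4 the median difference was -0.13.

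The 115 estradiol-reduced genes mirrored this, with 99 higher in KO, a median difference of 0.55 and 0 called by limma, 23 being higher at an unadjusted p under 0.05. Their median log2 level was 2.17, 2.06 and 1.96 in KO and 1.86, 2.08 and 0.32 in WT. WT 4 alone was low, and without it the median difference was 0.08. A list of 20 classical estrogen-induced secretory genes had 1 called higher and 1 lower, with a median of -1.20 and of 0.03 without WT 4. On it, Ltf, which encodes lactoferrin, had 8.81, 18.1 and 40.5 FPKM in KO, against 63.7, 217 and 448 FPKM in WT (-3.22, adjusted p = 0.492), and Sprr2f 42.6, 201 and 176 FPKM in KO, against 134, 292 and 8171 FPKM in WT (-2.56, adjusted p = 0.352). The stage of the cycle of each mouse is not given, and its part in these levels was not tested.

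**Figure D4:**
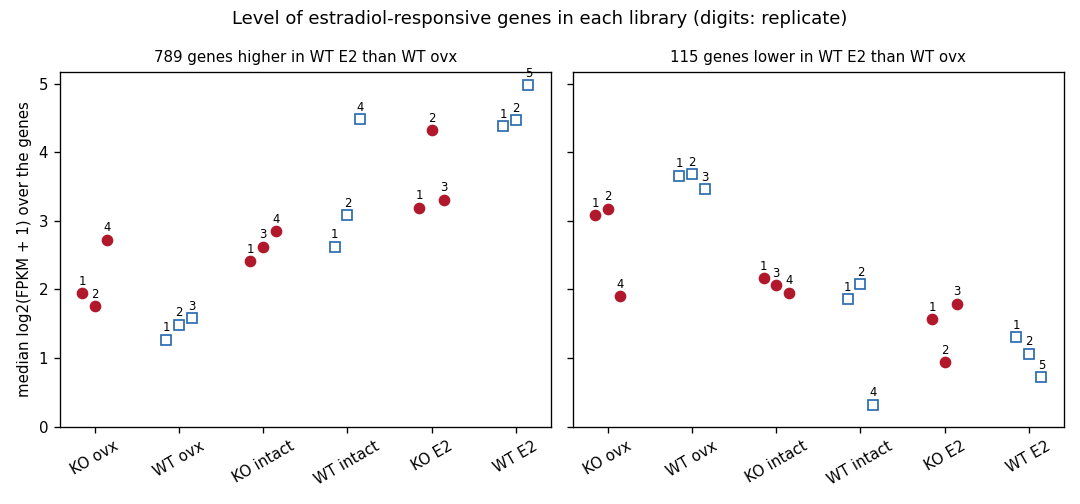
Median log2(FPKM + 1) over 789 genes higher and 115 genes lower in WT E2 than in WT ovx, a point per library, in KO ovx, WT ovx, KO intact, WT intact, KO E2 and WT E2. Intact WT libraries spread from 2.62 to 4.48 over the induced genes, and intact KO libraries from 2.41 to 2.85.

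The called genes were also sorted by their response to estradiol in WT. Of the 138 lower in KO, 80 (58.0%) were called higher in WT E2 than in WT ovx, against 32.3% of all tested genes, and 4 (2.90%) were called lower, against 15.2%. Of the 165 called higher in KO, 27 (16.4%) were called higher in WT E2 than in WT ovx and 30 (18.2%) lower. These shares are a description, without a test.

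The same comparison in the other hormone states shares no library with the intact one. KO ovx differed from WT ovx at 5.42% of tested genes (4.63% higher and 0.791% lower), and KO E2 from WT E2 at 8.49% (4.91% higher and 3.58% lower). Of the 165 genes called higher in intact KO, 111 (67.3%) were also higher in KO ovx and 19 (11.5%) were called so, against 53.0% and 4.51% of all genes with a higher mean in intact KO. In E2, 125 (75.8%) were higher and 16 (9.70%) called, against 62.4% and 6.71%. Of the 138 called lower, 32 (23.2%) were lower in KO ovx and 0 were called lower by limma or reached an unadjusted p under 0.05 in that direction, against 33.5% and 0.599% of all genes with a lower mean in intact KO. Called higher in KO ovx were 5 of the 138, against 364 of those 7674 genes. In E2, 117 (84.8%) were lower and 32 (23.2%) called, against 70.9% and 5.17%.

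**Figure D5:**
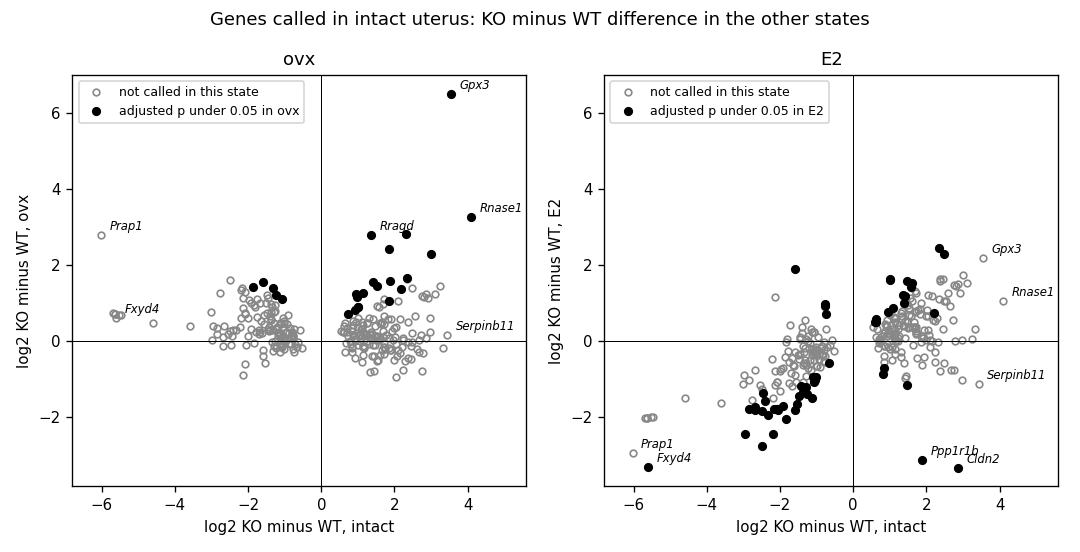
KO minus WT log2(FPKM + 1) difference of the 303 called genes in the intact uterus (x) against the same difference after ovariectomy or under E2 (y). In the E2 panel 84.8% of the lower genes lie below 0, and in the ovx panel 23.2%.

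Tests of the difference between states were made in the same model. The genotype difference in intact uteri differed from that in ovx at 643 genes (4.63% of those tested, with 1.02% higher in intact and 3.60% lower) and from that in E2 at 279 (2.01%, with 0.612% higher and 1.40% lower). Of the 303 called genes, 137 differed from ovx, 46 from E2 and 26 from both. Cldn2 had an intact log2 difference of 2.87 and an E2 difference of -3.34 (adjusted p = 0.00065), which differed by 6.20. Ppp1r1b, which encodes a protein phosphatase inhibitor, had 10.2, 7.39 and 10.5 FPKM in intact KO, against 1.24, 2.24 and 2.00 FPKM in intact WT (1.88 ± 0.43, adjusted p = 0.04), and an E2 difference of -3.13 (adjusted p = 0.00066). Its intact call ended without any library but WT 2 (0.115, 0.116 and 0.0956 without KO 1, KO 3 and KO 4, and 0.0581 and 0.0979 without WT 1 and WT 4). Prap1 and the Serpina1 genes differed from ovx by -8.82 and by -6.40 to -6.17.

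Some calls recurred. Gpr137b, a lysosomal membrane protein that acts on the Rag GTPases, was called in all 3 states, with 2.56, 3.09 and 3.09 FPKM in intact KO, against 0.975, 1.32 and 0.636 FPKM in intact WT. Its log2 differences were 1.00 intact, 0.90 in ovx and 1.61 in E2 (adjusted p = 0.0489, 0.0477 and 0.00118), and its intact call is not among those that held throughout. Its near-identical pseudogene copy Gpr137b-ps was called as well, and reads may be shared between them. The remaining gene was the uncharacterized 2410022L05Rik. Rragd was called in ovx (2.79, adjusted p = 5.4e-06) and not in E2 (0.43, adjusted p = 0.24), and its intact difference was smaller than that in ovx by a tested 1.42 on the log2 scale. Gpx3 was called in ovx (6.51, adjusted p = 0.00022), Rnase1 and Rnase4 too (3.25 and 2.30, adjusted p = 0.019 and 0.037), while Fxyd4 was called lower in E2 (-3.32, adjusted p = 0.015).

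Short motifs were counted in RefSeq promoter windows of 300 bases (250 before the start and 50 after, GRCm38.p6, both strands) for the called genes that matched, 114 higher and 107 lower, beside all 9983 tested genes that matched. CACGTG, the core of the element bound by TFEB and its relatives, was in 9.65% of the higher and 9.35% of the lower genes, against 11.4% of tested genes and 7.15% of 32851 promoters. A pair of GAAA runs 2 bases apart, found in interferon-responsive elements, was in 3.51% of the higher and 7.48% of the lower genes (8 genes), against 3.85% of tested genes and 3.44% of all promoters. The CArG box bound by SRF in muscle genes was in 3.51% of the higher (4 genes) and 1.87% of the lower genes, against 1.71% of tested genes and 1.63% of all promoters. GGTCA followed by TGACC with 3 bases between them, the estrogen response element, was in 0 of the called genes, against 1 of the tested genes (0.0100%) and 0.0700% of all promoters, too few to compare. No motif contains another, and a match is only a description of these letters.

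The calls differed in how much they rested on single libraries. Of the 303, 59 held without each of the 6 libraries in turn, 33 higher and 26 lower, and 15 of these were also called when only the 6 intact libraries were fitted. Those 15 included the 5 Serpina1 genes, Fxyd4, LOC100504190, Coro2a, Kif5c and Slc23a1 among the lower and Rragd, Dio1, Fabp3 and Sytl2 among the higher genes. The 6 libraries alone gave 25 calls, 22 of them among the 303. Leaving out KO 1, KO 3 or KO 4 gave 100, 66 and 155 calls, and leaving out WT 1, WT 2 or WT 4 gave 674, 460 and 132.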

How the data were processed

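The FPKM values were deposited by the authors, who made them with Cufflinks 2.0.2 and Cuffdiff per the submitters' processing notes, from stranded single-end mRNA libraries per the labels' protocols. Aligner, annotation and build are not given in the sources used here. Since no read counts accompany the FPKM values, the depth of each library is unknown. Libraries were grouped by their labels, and the WT library numbered 4-2 counts as replicate 4. Genes with at least 1 FPKM in at least 3 of 18 libraries were analysed as log2(FPKM + 1), a scale that understates the fold of low genes. All 18 libraries entered 1 limma model with 6 group means (limma 3.58.1, R 4.3.3, eBayes with trend, 12 residual degrees of freedom, two-sided, Benjamini-Hochberg over all tested genes), which was tested on simulated data. Only Tsc2 had its own exact permutation test. Figures were drawn in Python 3.11.15.

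The comparison, its gene lists and the estradiol-responsive sets were chosen with earlier results of these data known. The rule for named genes took the 20 largest log2 changes each way among calls with a mean of at least 5 FPKM in 1 group and no overlap, up to 4 called members of each list (where fewer than 2 passed, up to 2 of the highest members), and the 5 largest differences each way between states. Dio1, Fabp3, Slc23a1, Flcn, Mtor, Mitf, Atp6v0d2, Rnase6, Igf2, Gpr137b, Cdh1, Cldn3, Hoxa10, Hand2, Serpinb7, Naip2, Naip6, Acta2, Sprr2f, Kif5c and Sytl2 lie outside it and were named after their values were seen. Promoter sequences are from RefSeq (GRCm38.p6), where 47 of 71 named called genes matched. Other pseudocounts, filters, scalings, fits and library subsets were tried as alternatives. The values of 1 gene that the rule names are not reported here, although counts include it.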

Additional observations from a re-analysis of the deposited data

Results flagged for a closer look

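The genotype difference in the intact uterus was tested against that in the other states, and the genes named here passed an adjusted p of 0.05 in limma. Each value is KO minus WT in intact uteri minus KO minus WT in the other state, on the log2(FPKM + 1) scale, so a negative value means that the KO difference was lower in the intact state.

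Against ovx, Prap1 differed by -8.82, Pdzk1ip1 by -6.53, Serpina1a, Serpina1b, Serpina1c, Serpina1d and Serpina1e by -6.21, -6.35, -6.34, -6.17 and -6.40, Fxyd4 by -6.21, Gcnt3 by -3.76, Sgms2 by -2.73, Coro2a by -2.54, B3gnt7 by -2.21 and Erbb2 by -1.65. LOC100504190, BC037703 and Gm3142, given no role here, differed by -5.06, -4.0 and -3.19. Rragd, higher in KO in both states, differed by -1.42. Immune genes with negative values were Irf7 at -4.10, Oas2 at -4.01, Oasl1 at -2.62, Naip1 at -3.02 and Naip5 at -2.78.

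Muscle and vessel genes were positive against ovx, with Des at 3.57, Mustn1 at 3.53 and Pgm5 at 3.00. Cldn5 was at 3.74, Pecam1 at 2.98, Tspan7 at 2.83, Vwf at 2.17, Ptprb at 2.05, Flt4 at 1.99 and Erg at 1.68. Among secreted, matrix and imprinted genes the values were 3.73 for Fn1, 3.28 for Serpinb11, 3.10 for Inhbb and 2.60 for Aspn. They were 2.59 for H19, 2.49 for Wif1, 2.38 for Fst and 2.27 for Ctgf.

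Against E2, the positive values were Scgb3a1 at 6.51, Cldn2 at 6.20, Ppp1r1b at 5.01, C4bp at 4.91, Serpinb11 at 4.57, C1qtnf3 at 3.22, Ctgf at 3.07, Wif1 at 1.97, Foxj1 at 1.76 and Fst at 1.47. The negative ones were Ngp at -5.19, Camp at -5.05, 1100001G20Rik at -3.83, Chi3l3 at -3.73 and Chi3l4 at -3.72. Ngp and Camp, granule genes of neutrophils, were near 0 in both intact groups and higher in KO E2 than in WT E2, so these 2 values come from the E2 state. Scgb3a1, a secretoglobin, was likewise below 1 FPKM in every intact library and lower in KO E2 than in WT E2.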

How the results depend on the processing

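No named gene reversed under any alternative. Against 303 calls in KO intact over WT intact, quantile normalization gave 535, the 6 intact libraries alone 25, quality weights 1859, the replicate block 29, and the library sets 95 and 7 (the second set being 1 library against 1, assumed to vary like the other groups). Against 643 genes that differed between intact and ovx, quantile normalization gave 1495, weights 1657, the block 1, a term for library sets 389, and the sets 127 and 21. Against 279 between intact and E2, a pseudocount of 0.1 gave 74, a filter on the intact mean 35, weights 2042, the block 0, and the sets 73 and 1. Against 55 list members, no filter gave 34, the intact libraries alone 10, weights 168, the block 9, and the sets 26 and 2. The share of called genes with the same sign was 47.2% in ovx (28.6% within the second set) and 79.9% in E2 (17.2% under the block). Leaving out a library gave 66 to 674 calls, 87 to 1178 and 121 to 716 for the differences from ovx and E2, and 19 to 87 list members. The causes were not tested. The higher share of calls was 54.5%, and 48.5% with median-ratio scaling (212 higher, 225 lower).

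KO and WT share replicate numbers 1 and 4, whose deviations correlated at 0.063 and 0.184, so the numbers were not taken to pair the samples; the block left 3 residual degrees of freedom, with limma counts at an unadjusted p under 0.05 of 2234 (intact), 2254 (intact minus ovx) and 1551 (intact minus E2). Of 167 named genes, 71 were called in KO intact against WT intact. Of those calls, 60 were lost in the intact libraries alone, 64 under the block, 44 without KO 3 and 37 without WT 4. Quality weights added 17 calls among the other named genes. WT 4 and the unknown stage of the cycle limit every mean of WT, and depth is unknown.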

Other observations

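Several genes outside the lists had calls that held without each of the 6 intact libraries in turn. They were chosen after their values were seen. Kif5c, a kinesin motor, had 0.700, 0.997 and 0.721 FPKM in KO, against 4.11, 3.83 and 3.71 FPKM in WT (log2 difference -1.44 ± 0.19 SE, adjusted p = 0.00305), and was also called lower in E2 (-1.19, adjusted p = 0.00136). Epha4, an ephrin receptor, had 0.783, 0.985 and 0.906 FPKM in KO, against 2.62, 3.42 and 4.00 FPKM in WT (-1.19 ± 0.16, adjusted p = 0.00354). Fgf1, a growth factor, had 1.08, 1.34 and 0.734 FPKM in KO, against 4.79, 9.85 and 4.95 FPKM in WT (-1.82 ± 0.29, adjusted p = 0.00507). No library overlapped the other genotype at these 3 genes.

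On the other side, Ascl2, a WNT target transcription factor, had 2.13, 2.23 and 2.53 FPKM in KO, against 0.163, 0.839 and 0.222 FPKM in WT (1.26 ± 0.18, adjusted p = 0.00507). Angpt2, a vessel-remodelling ligand, had 1.49, 2.41 and 2.32 FPKM in KO, against 0.332, 0.334 and 0.434 FPKM in WT (1.16 ± 0.18, adjusted p = 0.00507). Sytl2, which acts in vesicle traffic, had 3.21, 4.27 and 3.43 FPKM in KO, against 0.236, 0.272 and 0.0166 FPKM in WT (1.98 ± 0.31, adjusted p = 0.00507). Slc38a1, a glutamine transporter, had 9.56, 9.77 and 5.86 FPKM in KO, against 1.42, 2.10 and 0.189 FPKM in WT (2.15 ± 0.36, adjusted p = 0.00687). KO 4 was the lowest KO library at Slc38a1.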
